A study of Mus musculus with 3 samples.

Results

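The 9 genes described here belong to the presentation pathway of class I of the major histocompatibility complex (MHC) and were listed by name, with earlier results of these data known. Their chromatin was examined for H3K27ac, the acetylated form of lysine 27 of histone H3, which is found at active promoters and enhancers. They are the heavy chain genes H2-K1, H2-D1 and H2-T23, the light chain gene B2m, the peptide transporter genes Tap1 and Tap2, the tapasin gene Tapbp, the trimming peptidase gene Erap1 and the activator gene Nlrc5. These 9 genes were set against all 21774 protein-coding genes on the assembled chromosomes. H3K27ac had been measured by chromatin immunoprecipitation and sequencing in CD4-CD8- double-negative T cells (CD25+CD44-/+) that were sorted from thymus of wild-type C57BL/6J mice aged 5 to 7 weeks. There are 2 H3K27ac replicates, and 1 input sample is also labelled. The input was not analysed here, and whether it served as control when the peaks were called is not given. Nothing in the labels says whether the replicates came from separate animals. There is 1 condition, so no contrast between conditions was tested.

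MHC class I molecules show peptides from inside the cell to CD8 T cells and to natural killer cells. A heavy chain pairs with beta-2 microglobulin in the endoplasmic reticulum, where TAP brings in peptides made by the proteasome, tapasin holds the empty molecule next to TAP, and ERAP1 trims the peptides to length. NLRC5 is the activator of class I transcription. It joins the RFX complex, CREB/ATF factors and NF-Y on a module of promoter elements called S, X and Y boxes, while its relative CIITA does the same for class II genes of antigen-presenting cells. Upstream of that module, classical class I promoters carry an NF-kappa-B element, known as enhancer A, and an interferon response element.

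The deposited lists held 12377 peaks in replicate 1 and 9477 in replicate 2 on the assembled chromosomes, with median fold enrichments of 2.17 and 2.31. A q-value of at most 0.05 was reached by 27.1% and 41.0% of them. Of 14 genes that mark double-negative thymocytes, Dntt, Cd3d, Cd3e, Cd3g and Tcf7 had a peak of each replicate within 1 kb of an annotated end of the gene, called a gene end below (16.9% of all protein-coding genes did). Ptcra, Il2ra, Bcl11b and Thy1 had such a peak in 1 replicate, and Rag1, Rag2, Notch1, Lck and Cd2 had none. Of 24 markers of later thymocytes, B cells, dendritic cells and macrophages, thymic epithelium and innate lymphoid cells, only Nkg7 did, and Cd68 had a peak in 1 replicate (a peak in either replicate was found at 30.7% of all protein-coding genes). Cd4, Cd8a and Cd8b1 had none in either replicate.

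Promoter windows from RefSeq (build GRCm38.p6, 250 bases before to 50 after the first listed transcript start) are shown for the 5 genes that had a peak of each replicate within 1 kb of a transcript start, and for H2-D1 as the classical partner of H2-K1. They run 5′ to 3′ along the gene. The first listed starts of H2-K1 and Erap1 lie inside the annotated genes, and so do their whole windows. Capitals mark any of 5 letter patterns searched on both strands: GGG, any 2 bases, TT, any base and CC (NF-kappa-B type), GAAA, any 2 bases and GAAA (interferon response type), CCAAT (Y box type), TGACG (X2 or CRE type) and GGGCGG (SP1 type). No marked stretches overlap each other.
H2-K1 (chr17:34000298-34000597, minus strand): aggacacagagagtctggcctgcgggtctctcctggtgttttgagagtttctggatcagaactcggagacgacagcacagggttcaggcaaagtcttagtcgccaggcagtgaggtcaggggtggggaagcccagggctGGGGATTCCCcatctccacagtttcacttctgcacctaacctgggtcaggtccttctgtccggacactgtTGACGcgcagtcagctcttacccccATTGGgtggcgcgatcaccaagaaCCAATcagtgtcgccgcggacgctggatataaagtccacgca
H2-D1 (chr17:35262844-35263143, plus strand): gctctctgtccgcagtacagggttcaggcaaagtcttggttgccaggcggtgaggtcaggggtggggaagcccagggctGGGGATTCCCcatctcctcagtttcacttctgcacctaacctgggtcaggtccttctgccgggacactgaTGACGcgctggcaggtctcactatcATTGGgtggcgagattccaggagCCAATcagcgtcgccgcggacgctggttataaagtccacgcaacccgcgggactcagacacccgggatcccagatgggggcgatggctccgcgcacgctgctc
B2m (chr2:122147437-122147736, plus strand): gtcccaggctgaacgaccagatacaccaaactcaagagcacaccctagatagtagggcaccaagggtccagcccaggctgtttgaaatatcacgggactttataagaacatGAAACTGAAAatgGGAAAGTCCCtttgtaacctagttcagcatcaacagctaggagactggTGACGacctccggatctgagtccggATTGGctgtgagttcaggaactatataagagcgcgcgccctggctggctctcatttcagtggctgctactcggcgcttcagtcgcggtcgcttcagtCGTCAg
H2-T23 (chr17:36032652-36032951, minus strand): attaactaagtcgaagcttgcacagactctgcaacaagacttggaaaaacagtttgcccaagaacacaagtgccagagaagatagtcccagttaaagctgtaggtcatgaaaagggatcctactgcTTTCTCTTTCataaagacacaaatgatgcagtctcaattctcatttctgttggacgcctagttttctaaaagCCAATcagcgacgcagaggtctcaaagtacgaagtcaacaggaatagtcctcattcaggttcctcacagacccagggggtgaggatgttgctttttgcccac
Tap1 (chr17:34187306-34187605, plus strand): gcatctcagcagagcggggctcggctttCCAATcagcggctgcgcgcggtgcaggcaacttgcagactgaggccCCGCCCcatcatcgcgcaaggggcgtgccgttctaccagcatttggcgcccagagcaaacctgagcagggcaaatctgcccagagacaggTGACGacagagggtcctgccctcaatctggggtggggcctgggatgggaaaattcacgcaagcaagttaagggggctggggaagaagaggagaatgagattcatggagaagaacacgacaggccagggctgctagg
Erap1 (chr13:74639603-74639902, plus strand): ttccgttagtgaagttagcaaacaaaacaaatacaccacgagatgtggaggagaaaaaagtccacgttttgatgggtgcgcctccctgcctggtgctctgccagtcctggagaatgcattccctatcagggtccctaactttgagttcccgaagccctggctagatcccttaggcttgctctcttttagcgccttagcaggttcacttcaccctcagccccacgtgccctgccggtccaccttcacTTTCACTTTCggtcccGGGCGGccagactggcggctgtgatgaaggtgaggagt

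The windows of H2-K1, H2-D1 and B2m held the same arrangement of letters. Each had TGACG, then 20 bases, then ATTGG, which is CCAAT on the other strand. This spaced pattern, searched after the places of its parts had been seen, was found in 24 of the 17492 first-listed promoters of protein-coding genes (0.137%). The NF-kappa-B type letters stood upstream of it in all 3 windows. They began 111 bases before the listed start in H2-K1, 171 bases before it in H2-D1, and 126 bases before it, on the other strand, in B2m. TGACG began 41 bases before the listed start in H2-K1, 101 in H2-D1 and 78 in B2m. The listed starts of H2-K1 and H2-D1 thus lie at different places relative to these letters.

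Across the 7 genes with a listed promoter (H2-K1, H2-D1, H2-T23, B2m, Tap1, Tapbp and Erap1), the NF-kappa-B type letters occurred in 3, against 4.80% of all listed promoters. The interferon response type letters occurred in 3, H2-T23, B2m and Erap1, against 3.40%. The Y box type letters occurred in 6, against 39.0%, the X2 or CRE type in 4, against 23.8%, and the SP1 type in 3, against 46.3%. H2-K1 and H2-D1 both count for the NF-kappa-B, Y box and X2 or CRE types. Their promoters are near copies, as given below, so these matches are not independent. These are matches of letters and not shown sites of binding. A window without a match, such as those of H2-K1 and H2-D1 for the interferon response type, is not shown to lack the element.

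**Figure D1:**
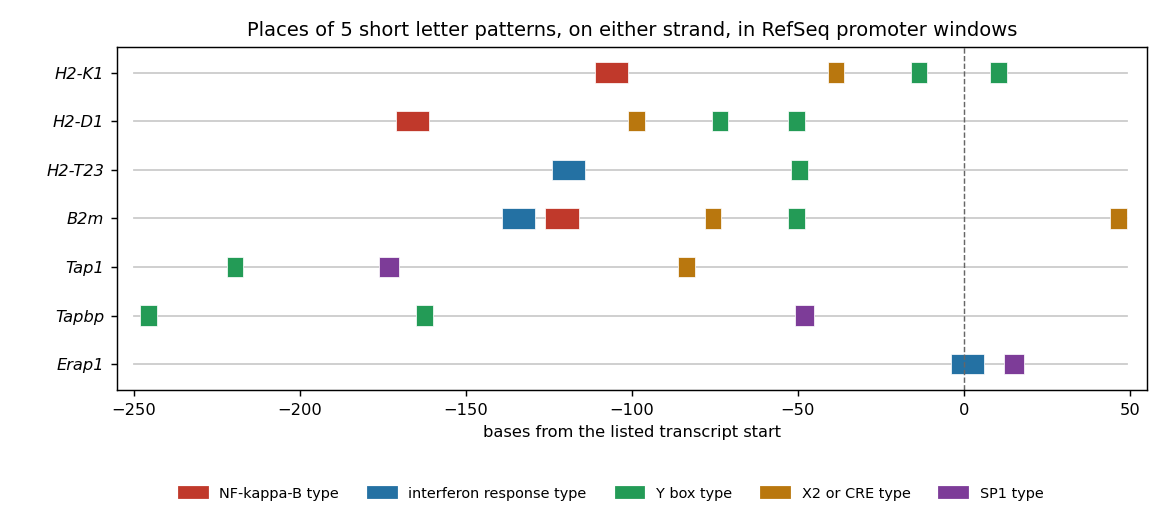
Places of the 5 letter patterns in the 300-base promoter windows of 7 genes, with bases from the listed transcript start on the x axis and 1 row per gene. The X2 type and Y box type marks stand at the same distance from each other in H2-K1, H2-D1 and B2m.

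The promoters of H2-K1 and H2-D1 are near copies. Aligned with free ends, they were identical at 211 of 240 positions (87.9%), with a longest identical run of 47 bases. H2-T23 shared a run of 86 bases with H2-T-ps. Reads that match several class I genes cannot be placed by sequence, and how they were treated is not given in the sources used here, so the peaks at H2-K1, H2-D1 and H2-T23 are uncertain in this respect. Its part in the results was not tested.

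Of the 9 genes, 5 had a gene-end peak of each replicate: H2-K1, H2-T23, B2m, Tap1 and Erap1. That is 55.6% of them, against 16.9% of all protein-coding genes. In each of the 5 the peaks of the replicates overlapped. At H2-D1 replicate 2 alone had such a peak, at Tap2 and Tapbp replicate 1 alone, and at Nlrc5 neither. Replicate 1 thus had such peaks at 7 of the 9 genes (25.2% of all genes) and replicate 2 at 6 (22.3% of all genes). Nlrc5 is the only activator of the set, and 69.3% of all protein-coding genes likewise had no such peak in either replicate. The Tapbp peak lay beyond its far end and was also a gene-end peak of Rgl2.

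**Figure D2:**
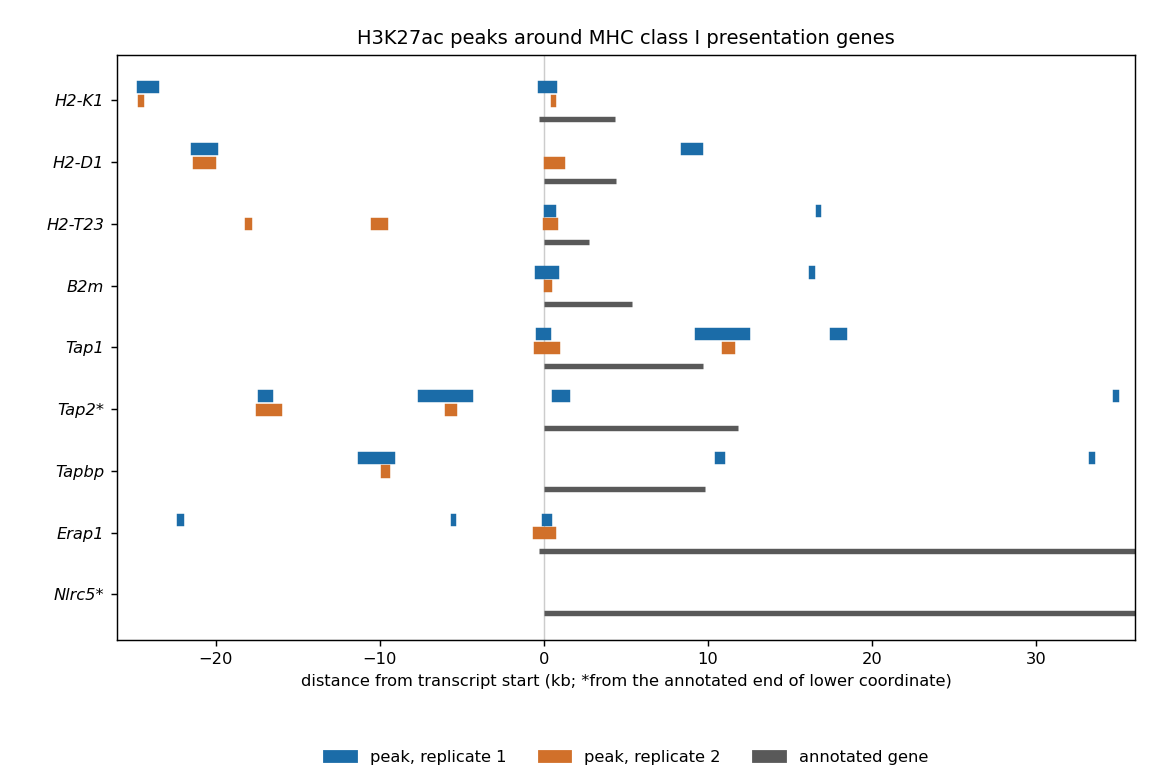
Peaks of both replicates around the 9 genes, with distance from the listed transcript start in kb on the x axis, in the direction of transcription. For Tap2 and Nlrc5, distance is from the annotated end of lower coordinate. Bars above each grey gene line are the peaks, drawn to scale. Gene lines of Erap1 and Nlrc5 run past the right edge, and so do 2 replicate 1 peaks beyond the far end of Erap1 and 1 beyond that of Nlrc5. At the start, H2-K1, H2-T23, B2m, Tap1 and Erap1 have peaks of both replicates.

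Among the 3 heavy chain genes of the set, H2-T23 had the tallest gene-end peaks. It encodes Qa-1, a non-classical molecule that presents leader peptides of other class I chains to CD94/NKG2A receptors, and lies at 17, 36029977 to 36032701. Replicate 1 had a peak at 36032036 to 36032681 with a fold of 2.80 and a −log10 q of 1.67, and replicate 2 a peak at 36031920 to 36032762 with a fold of 3.34 and a −log10 q of 2.60. These folds stood above 86.4% and 88.7% of all gene-end peaks of their lists. Of the 9 genes, H2-T23 alone had gene-end peaks with q of at most 0.05 in both replicates, a condition met by 2.65% of all protein-coding genes. The peaks ran from 20 to 665 bases after the start in replicate 1, and from 61 bases before it to 781 after it in replicate 2.

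H2-K1, a classical heavy chain gene at 17, 33996012 to 34000619, had lower peaks. Their folds were 1.97 in replicate 1 and 2.15 in replicate 2, above 28.8% and 34.4% of gene-end peaks, with −log10 q of 0.596 and 1.14. Its first listed start is at 34000347, inside the annotated gene. The replicate 1 peak spanned 1119 bp, from 369 bases before the listed start to 749 after it. The replicate 2 peak spanned 252 bp and lay from 452 to 703 bases after the start, so the promoter window shown above was under a peak in replicate 1 alone.

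H2-D1, the other classical heavy chain gene, lies at 17, 35263094 to 35267497. In replicate 2 a peak of 1227 bp began 24 bases after its start, with a fold of 2.05 and a −log10 q of 0.771. Replicate 1 had no gene-end or gene-body peak there, and its nearest peak lay 3925 bp beyond the gene's far end, with a fold of 1.87. The replicates thus covered no base of H2-D1 in common, while they shared 252 bp of H2-K1 and 646 bp of H2-T23.

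B2m, at 2, 122147687 to 122153082, encodes the light chain shared by all of these heavy chains. Its start lay under a replicate 1 peak of 1423 bp (fold 2.004, −log10 q 0.632), and a replicate 2 peak of 461 bp began 3 bases after it (fold 2.31, −log10 q 0.864). The folds stood above 32.3% and 49.1% of gene-end peaks. The whole replicate 2 peak was inside that of replicate 1. B2m is 1 of the 3 genes of the set outside chromosome 17, with Erap1 and Nlrc5.

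Tap1 and Tap2 encode the subunits of the peptide transporter. They lie at 17, 34187556 to 34197225 and 34204479 to 34216321, with Psmb8 between them. At the start of Tap1, a replicate 1 peak of 853 bp had a fold of 1.75 and a −log10 q of 0.484, and a replicate 2 peak of 1504 bp had a fold of 2.96 and a −log10 q of 2.09. These peaks also covered the start of Psmb9, a subunit of the immunoproteasome, which is transcribed the other way from a start 226 bp away. Acetylation there cannot be assigned to 1 of the 2 genes. At the far end of Tap1, a replicate 1 peak of 3292 bp (fold 2.17) ran into Psmb8, a further immunoproteasome subunit, where replicate 2 had a peak of 704 bp (fold 2.25).

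Tap2 had a peak of 1022 bp inside its annotated end of lower coordinate in replicate 1 (34204968 to 34205989, fold 2.24, −log10 q 0.837). Replicate 2 had no peak in the gene or within 1 kb of its ends. The stretch from Psmb9 to Tap2 thus held 2 regions covered by both replicates, of 853 bp at Psmb9 and Tap1 and of 704 bp at Psmb8, and none in Tap2.

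Tapbp, at 17, 33919478 to 33929290, had no peak at its transcript start in either replicate and no peak in its body. A replicate 1 peak of 537 bp lay 611 bp beyond its far end (fold 2.39, −log10 q 1.36). It is also a gene-end peak of Rgl2, the next gene, whose first listed start is at 33929894, 7 bp before the peak. The region covered by both replicates nearest to Tapbp was 492 bp at the transcript start of Daxx.

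Erap1 lies at 13, 74639573 to 74693205. Its first listed start is at 74639853, inside the annotated gene. Both replicates had a peak over that start, of 585 bp in replicate 1 (fold 2.43, −log10 q 1.05) and of 1317 bp in replicate 2 (fold 2.46, −log10 q 1.31). The folds stood above 73.2% and 61.4% of gene-end peaks, and the replicate 1 peak lay wholly inside that of replicate 2. Erap1 had the closest pair of folds among the 5 genes with a gene-end peak of each replicate.

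Nlrc5, at 8, 94434335 to 94527272, had no peak of either replicate at its ends or anywhere in its 92938 bp. Within 25 kb there was a single peak of 278 bp, in replicate 1, with a fold of 2.25. It lay 5721 bp beyond the gene, over the transcript start of Cpne2. An absent peak does not show absent acetylation: neither replicate had a gene-end peak at 69.3% of all protein-coding genes, and the depth of the libraries is unknown.

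**Figure D3:**
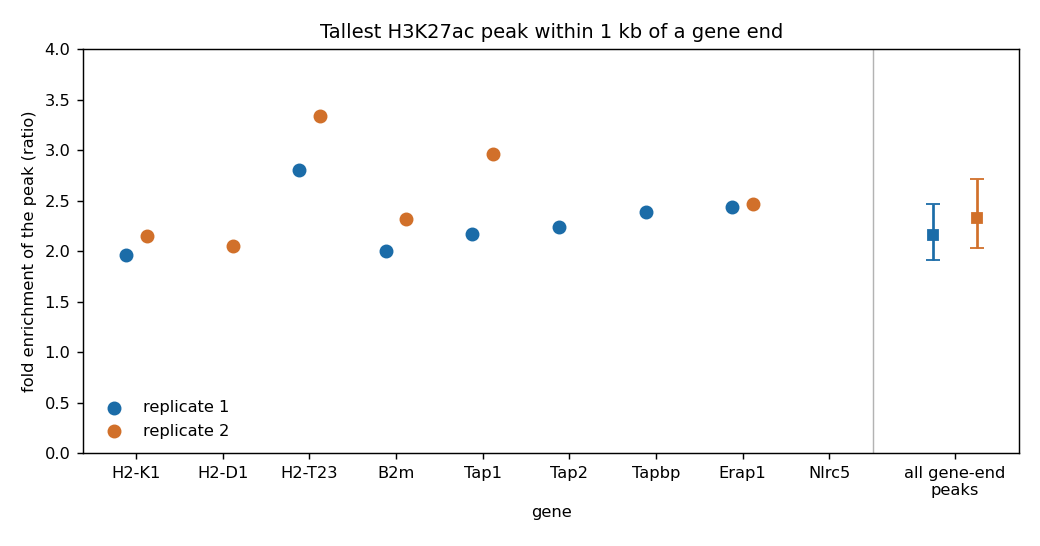
Fold enrichment of the tallest peak within 1 kb of a gene end for each of the 9 genes (points, 1 per replicate), and the median of all gene-end peaks per replicate with the quartiles as error bars. The replicate 1 point of Tap1 is the peak at its far end. H2-T23 lies above the upper quartile in both replicates, Tap1 in replicate 2, and Nlrc5 has no point.

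Gene bodies gave nearly the same picture as gene ends. A peak of each replicate overlapped the body of H2-K1, H2-T23, B2m, Tap1 and Erap1 (55.6%, against 20% of all protein-coding genes). H2-D1 and Tap2 had a body peak in 1 replicate, which brings the count to 7 of 9 in either replicate, against 39.1% of all genes. The bases of the body under peaks of both replicates numbered 252 in H2-K1, 646 in H2-T23, 461 in B2m, 349 in Tap1 and 585 in Erap1. Each of these shared stretches lay within 1 kb of a gene end, so no shared peak was found deep inside any of the 9 genes.

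From 25 kb before to 25 kb after the gene, 8 of the 9 had bases covered by both replicates (31% of all protein-coding genes). Nlrc5 was the exception. Much of this coverage belonged to neighbours. For H2-D1 all 1399 shared bp lay at the transcript start of Ddx39b, an RNA helicase gene. For Tap2 all 1557 bp lay at Psmb9, Tap1 and Psmb8, and for Tapbp all 492 bp lay at Daxx, a histone H3.3 chaperone gene. H2-K1 had 323 bp at Ring1 and H2-Ke6 besides the 252 bp of its own. The shared bases around H2-T23, B2m and Erap1 were those at their own starts. Further peaks in these windows were in 1 replicate alone. Those at gene ends lay at H2-T22 and Gm6034 near H2-T23 (replicate 2), and at Rps18 near Tapbp, H2-Ob near Tap2, Gm46430 near Erap1 and Cpne2 near Nlrc5 (replicate 1).

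The 6 genes on chromosome 17 lie in the gene-dense MHC, where a window of 25 kb often reaches other genes. From Tapbp to H2-T23 the density was 58.7 protein-coding genes per Mb, and over the whole of chromosome 17 it was 11.0. Of the 118 other protein-coding genes of that interval, 52.5% had shared bases within 25 kb and 19.5% had a gene-end peak of each replicate. Peaks with a fold under 2 and a −log10 p of at least 5 were looked for on chromosomes 17, 2, 13 and 8, which hold the 9 genes. On chromosome 17 they lay between 21516140 and 31566765, and chromosomes 13 and 8 had none. On chromosome 2, where B2m lies, there were 30 in replicate 1 and 22 in replicate 2, spread over 112455039 to 182013344, a range that encloses B2m. None was found within 25 kb of any of the 9 genes.

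The length covered within 25 kb by both replicates had a median of 585 bp over the 9 genes. The median over all protein-coding genes was 0 bp, and over the 6755 genes with any shared bases it was 629 bp. Tap1 and Tap2 shared the greatest length of the 9 (1557 bp, rank 839 of all genes), followed by H2-D1 with 1399 bp, H2-T23 with 646, Erap1 with 585, H2-K1 with 575, Tapbp with 492 and B2m with 461. For most of these genes the replicates were far apart, which limits the order. Replicate 1 covered 2402 bp around H2-K1 and replicate 2 covered 575 bp, and around H2-T23 they covered 924 and 2074 bp. H2-D1 was an exception in total length alone, with 2832 and 2626 bp, of which only the 1399 bp at Ddx39b were shared.

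**Figure D4:**
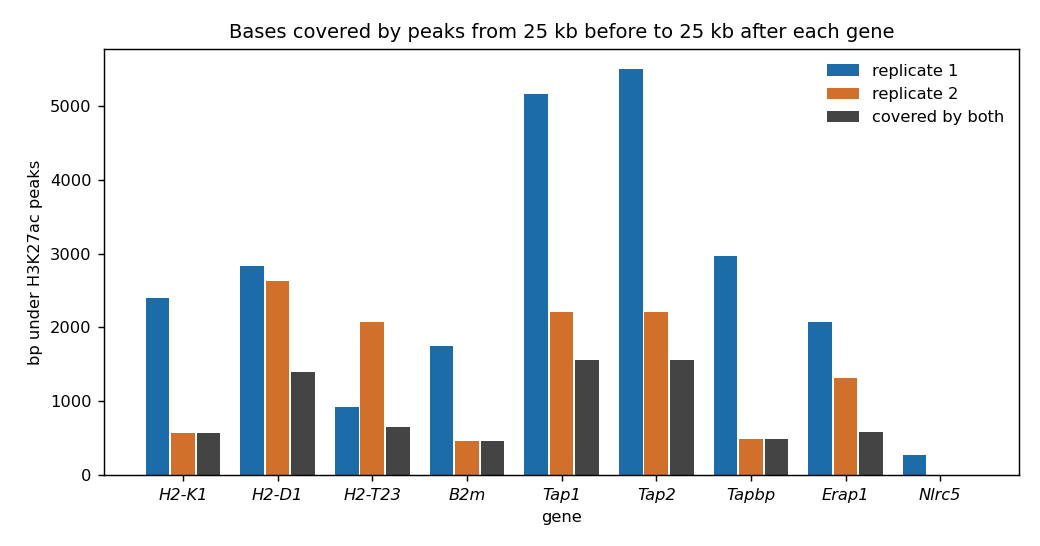
Bases under H3K27ac peaks from 25 kb before to 25 kb after each of the 9 genes, in replicate 1, in replicate 2 and in both at the same position. Tap1 and Tap2 share most of their window and reach 1557 bp in both, and Nlrc5 has 278 bp in replicate 1 and 0 in both.

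Lists of the wider pathway were read in the same way. They held 66 genes, the 9 included, and 23 of these had a gene-end peak of each replicate (34.8%, against 16.9% of all protein-coding genes). Without the 9 genes the count was 18 of 57 (31.6%). Among 23 heavy chain and class I-like genes, B2m included, H2-Q4 (folds 1.79 and 2.71) and H2-M3 (1.85 and 2.19), which presents N-formylated peptides, joined H2-K1, H2-T23 and B2m. H2-T22, a ligand of some gamma-delta T cell receptors, had a replicate 2 peak alone, with a fold of 3.57. It was named after its value was seen. The 5 genes make up 21.7% of the list, against 16.9% of all protein-coding genes. Neither replicate had a gene-end peak at 15 of the 23 (65.2%), against 69.3% of all genes, so this list stood near the background.

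Peptide supply was the list with the highest share, at 7 of 12 genes (58.3%, against 16.9% of all protein-coding genes). Besides Tap1 and Erap1 these were Psmb8, Psmb9, the proteasome activator gene Psme3 (folds 2.30 and 2.92), and the peptidase genes Lnpep (3.003 and 2.28) and Tpp2 (2.20 and 1.98). Of other proteasome genes in the list, Psmb10 (1.77) had a peak in replicate 1 alone, and Psme1 and Psme2 had none. They were named after their values were seen. Psmb9 and Tap1 share a peak in each replicate, and Tap1 and Psmb8 share 1 in replicate 1, so these genes are not independent. In the list of the loading complex and its chaperones, 2 of 8 genes had gene-end peaks of both replicates (25%, against 16.9% of all genes). They were Pdia3 (ERp57, folds 2.06 and 3.32) and Hspa5 (BiP, folds 2.07 and 2.42). Single-replicate peaks stood at 4 more genes in replicate 1 and at 1 more in replicate 2. Only 1 of the 8 genes was unmarked in both (12.5%), against 69.3% of all genes.

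Of 16 activator genes, 6 had gene-end peaks of both replicates (37.5%, against 16.9% of all protein-coding genes), among them Nfya, Creb1, Atf1, Irf1 and Rela. Irf1, an interferon-induced factor that acts on class I promoters, had the tallest of all pathway peaks, with folds of 5.07 and 5.11 and −log10 q of 5.43 and 6.20. Of the RFX complex, named after their values were seen, Rfxap (fold 2.88) and Rfxank (2.41) had a peak in replicate 2 alone and Rfx5 had none. Of 7 interferon receptor and kinase genes, Ifngr1 (4.67 and 2.47), Ifnar2 (2.53 and 2.59) and Jak1 (2.18 and 2.28) had peaks of both (42.9%, against the same 16.9%).

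Of the 12 class II genes, 1 had a gene-end peak of each replicate (8.33%, against 16.9% of all protein-coding genes). It was H2-DMa, part of the class II peptide exchanger, with folds of 2.23 in replicate 1 and 4.21 in replicate 2. Its first listed start is at 34122832, inside the annotated gene. The replicate 1 peak, 34118858 to 34123184, covered that start. The taller replicate 2 peak, 34119922 to 34122636, ended before it. H2-DMb2 (2.33) and H2-Ob (1.77) had a peak in replicate 1 alone. Ciita, Cd74, H2-Aa, H2-Ab1 and H2-Eb1, which mark professional antigen-presenting cells, had none in either replicate. The difference between the class I and class II lists was not tested.

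**Figure D5:**
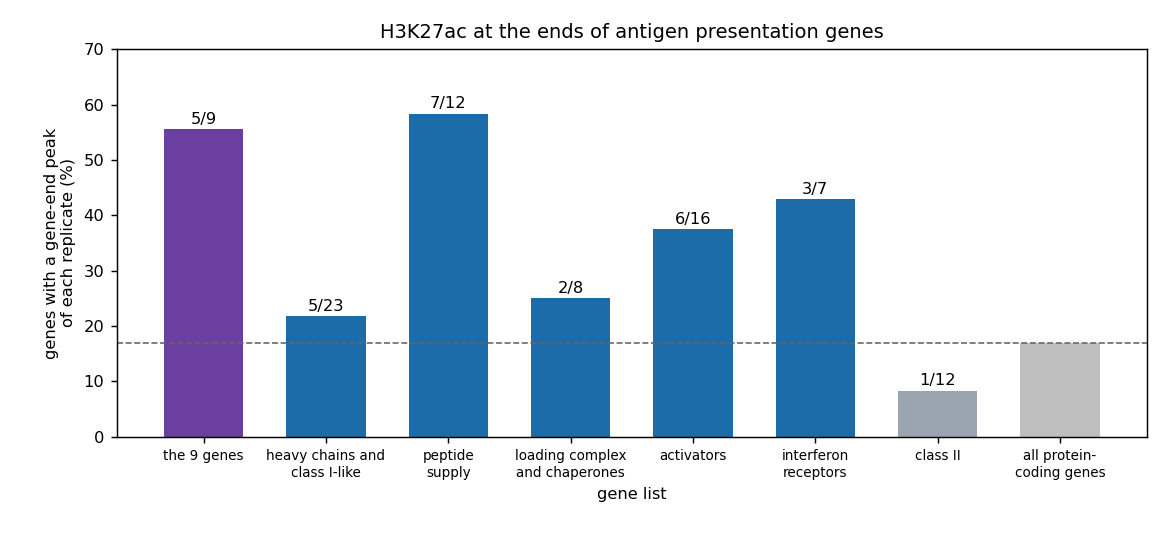
Percent of genes with a gene-end peak of each replicate, for the 9 genes, for 5 lists of the class I pathway, for class II genes and for all protein-coding genes (dashed line, 16.9%). Bars are labelled with the number of genes over the number measured, and the 9 genes are also counted in their lists. Peptide supply stands at 58.3% and class II at 8.33%.

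Most of the peaks behind these counts were weak when taken singly. With peaks of q at most 0.05, H2-T23 and Tapbp had a gene-end peak in replicate 1 (6.82% of all genes did), and H2-T23, Tap1 and Erap1 in replicate 2 (9.74%). With q of at most 1e-05, none of the 9 genes had a gene-end peak of each replicate, against 0.735% of all genes. When the window was 2.5 kb, the same 5 genes were marked in both replicates as with 1 kb, against 19% of all genes.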

How the data were processed

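Per the submitters' processing notes, Bowtie2 was the aligner, mm10 the build and MACS 1.4.2 the peak caller, although the deposited lists have the broad peak layout of MACS2. Per the labels' protocols, chromatin was captured with an H3 antibody before the H3K27ac antibody. Peak names carry 1 library index and the word rmdup, so the deposited peaks were called per sample after duplicate removal. What threshold was set, and whether the input served as control, is not given in the sources used here. For each peak the authors deposited its fold enrichment (a ratio), its −log10 p-value and its −log10 q-value, which describe and rank peaks within a list. The deposited score is 10 times the −log10 q and was not used. Read counts are not in these files. Depth is therefore unknown, and values have no counting interval.

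Gene positions came from the RefSeq table of GRCm38.p6, the build of mm10. From its 21900 protein-coding genes, 126 on scaffolds, patches or the mitochondrion were left out. A gene-end peak overlaps 1 kb on either side of an annotated gene end by at least 1 bp. Transcript starts and strand came from the RefSeq promoter table. For each gene the peak of highest fold stands for its ends. Coordinates count from 1. Alternatives were q of at most 0.05 or 1e-05, other windows, the transcript start alone, either replicate, each replicate alone, overlapping peaks and no chromosome 17. The 9 genes were named throughout, with listed genes marked in both replicates, class II genes with any gene-end peak and genes next to peaks; 1 listed gene is counted but not reported by name here. The 9 genes and the lists were chosen with earlier results of these data known. The overlap steps were tested on simulated data. Computations used Python 3.11.15, pandas 2.3.3 and Biopython 1.88.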

Additional observations from a re-analysis of the deposited data

How the results depend on the processing

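The count of 5 of the 9 genes with a gene-end peak of each replicate was the same with a window of 2.5 kb (19% of all protein-coding genes). It was also the same with peaks that had to overlap (16.3%). The transcript start alone gave 5 of the 7 genes with a listed start (18.2% of all protein-coding genes with a listed start). The count was 1 with q of at most 0.05 (2.65% of all protein-coding genes), 0 with q of at most 1e-05 (0.735%), 8 with a peak in either replicate (30.7%), and 2 of 3 without chromosome 17 (16.8%). Replicate 1 alone gave 7 (25.2%) and replicate 2 alone gave 6 (22.3%). For the 66 pathway genes, with 23 in both replicates, the counts under those 4 settings were 4, 1, 41 and 14 of 41. Replicate 1 alone gave 33 and replicate 2 alone gave 31. The shares of all protein-coding genes beside these counts are those just given. Of the 9 genes, 5 had a body peak of each replicate (20% of all genes), and 1 and 0 did at the stricter q-values. Shared bases within 25 kb were found for 8 (31% of all genes), and for 1 and 0 at the stricter q-values. The shares of all genes at those q-values are not given here for body peaks and shared bases. The causes are by construction: stricter thresholds leave fewer peaks. The median covered length was 2402 bp with replicate 1 alone and 1317 bp with replicate 2 alone, against 585 bp. At both stricter q-values it was 0 bp, and with windows of 10 and 50 kb it was 492 and 1307 bp. The median fold over the 13 tallest gene-end peaks of the 9 genes, at most 1 per gene and replicate, was 2.31. It was 2.81 over the 5 with q of at most 0.05. Per replicate, an alternative added after seeing the data, it was 2.24 to 2.39. No paired analysis was possible because the labels give replicate numbers within 1 group only.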

Other observations

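The pattern TGACG, 20 bases, ATTGG stood in the listed promoters of 24 protein-coding genes. Of these, H2-K1, H2-D1, H2-M3 and B2m are in the heavy chain list, and BC051142, Trim26, Znrd1 and Znrd1as are the further genes of chromosome 17. Nrarp, a feedback inhibitor of Notch signalling, and Per1, a clock gene, were among the others. These genes were looked up after the pattern was chosen, and no test was made.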
